A study of Danio rerio with 8 samples.

Results

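Chemokines are small secreted proteins that steer migrating cells, and they are sorted into CC and CXC ligands by the spacing of their first conserved cysteines. Most signal through G protein-coupled receptors (the ccr, cxcr and xcr genes), while atypical receptors (ackr genes) bind ligands and take them up without classical G protein signalling. In fish larvae the family is known both for guiding developmental migrations, such as that of the lateral line primordium and the germ cells, and for recruiting neutrophils and macrophages to injury and infection. The zebrafish genome holds many tandem duplicates of these genes.

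The family was examined in zebrafish larvae at 96 h, measured as RNA of the whole body on 1-color Agilent arrays, in which a single dye (Cy3) reports each probe's signal. There were 3 groups, the first being non-treated control larvae (2 arrays). The second was exposed to zinc oxide nanoparticles (ZnO NPs) at 2.64 mg/L (3 arrays). The third was exposed to the soluble zinc salt ZnSO4 at 7.75 mg/L (3 arrays). Exposure began at the embryo stage and ran until 96 h after fertilization. Both concentrations were set to kill the same share of embryos, so every treated group consists of the survivors of a partly lethal exposure. Strain and genotype are not given in the sources used here, and each RNA sample came from a beaker of pooled larvae. All arrays lay on 1 slide in 2 lines of positions, called its sides here. On side 1, ZnO NP replicates 1 and 2 lay beside the control arrays, and on side 2, ZnO NP replicate 3 lay beside the ZnSO4 arrays, so side and treatment cannot be told apart in the direct contrast of ZnSO4 with control. Nothing in the labels says whether the samples of a group came from separate parents, so p-values measure the spread between these samples only.

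Members were all probes whose listed transcript accession belongs to a gene with a RefSeq symbol of the ccl, ccr, cxcl, cxcr, xcr or ackr series. This gave 41 of the 81 family genes in the gene table, measured by 57 of the 43603 probes on the array; 13293 genes in all had a matched probe. They comprise 27 probes for 21 CC ligand genes, 13 for 8 CXC ligand genes, 14 for 10 receptor genes and 3 for 2 atypical receptor genes. For the other 40 genes no probe was matched, and these were not analysed here. Among them are the neutrophil attractant cxcl8a with its receptors cxcr1 and cxcr2, as well as cxcl12b, cxcr5, ccr9b, ccl25a, ccl19b and every xcr gene. Signals are given below as scaled signals, that is, the background-subtracted processed signal of a probe after each array was brought to a common 75th percentile. They are arbitrary units that may be compared between arrays for a given probe but not between probes. Fold changes are on the log2 scale, with the standard error (SE) from limma, a linear model with a spread estimate shared over genes, fitted to all 3 groups.

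Of the 57 probes, 34 (24 genes) were well above background on all 8 arrays, which is the scanner software's mark for a signal clearly over its local background. A further 3 probes (ccl34b.4, ccl35.2 and ccr12a) were so on every array of at least 1 group and were tested with them. This left 37 tested probes for 27 genes: 16 for CC ligands, 11 for CXC ligands, 8 for receptors and 2 for atypical receptors. ccr12a met this filter through the ZnO NP arrays alone, where its signal was highest, while ccl34b.4 met it through the control arrays. The remaining 20 probes had only a bound or scattered detection and got no fold change. On single arrays, 36 to 42 of the 57 probes were well above background, against 77.5% to 85.8% of all probes.

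Among the genes with no probe well above background on any array was a well-known homing receptor of leukocytes. Both probes of ccr7, the receptor that in mammals draws lymphocytes and dendritic cells to lymph nodes, had scaled signals of 2.28 to 7.72. Both probes of ccl19a.2, a ligand gene of the group that binds Ccr7 in mammals, gave 3.13 to 6.73. Its neighbour in the gene order of the assembly GRCz12tu, ccl19a.1, was well above background on all 8 arrays, with 767 to 1110. Other probes without a detected signal on any array were those of ccl27b (both probes), ccl33.2, ccl34a.3, ccl38a.4, cxcl11.8 and cxcl32b.1, and 1 each of the several probes of ccl39.1 and cxcr3.1. Detection on 1 to 3 arrays only was seen for ackr3a, ccl33.3, ccl39.1 (both of its other probes), ccr10, ccr6a and cxcr3.3. The map of detection by array shows these probes as open or partly filled lines. Whether probes of near-identical duplicates also bind each other's transcripts was not tested, since probe sequences were not used here.

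**Figure D1:**
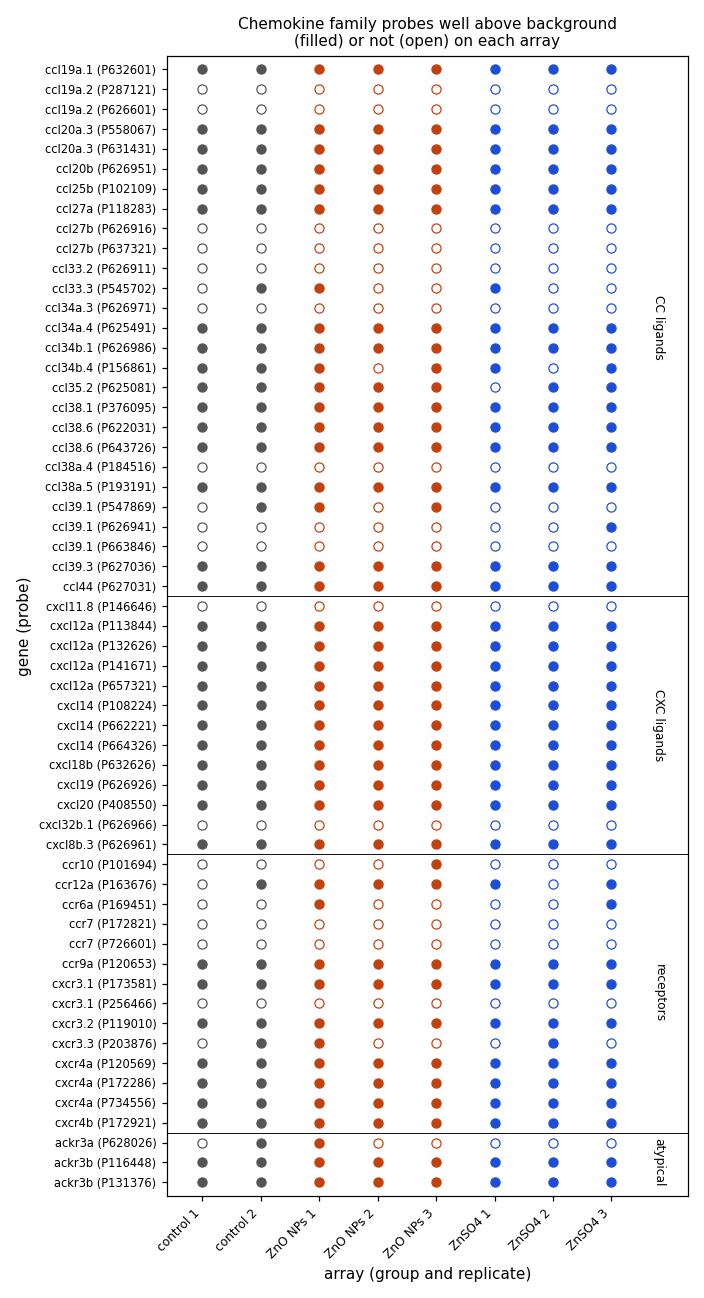
Each line is 1 of the 57 chemokine family probes, grouped by role, and each column 1 of the 8 arrays (gray, control; orange, ZnO NPs; blue, ZnSO4). Filled circles mark probes well above background: 34 probes are filled on all 8 arrays and 13 on none.

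No member passed the threshold for a changed probe, a fold change of at least 1.5 with a Benjamini-Hochberg adjusted p under 0.05 over all 34616 tested probes in limma. In larvae exposed to ZnO NPs, 0 of 37 tested members were called against control, where 0.0433% of all tested probes were. At an unadjusted p under 0.05 and the same fold, 2 members (5.41%) stood out against 3.07% of all probes, and both were probes of ccl20a.3. In larvae exposed to ZnSO4, 0 of 37 were called (0.026% of all probes), and 0 reached the unadjusted p with the fold (2.4% of all probes). Between ZnO NPs and ZnSO4, limma called 0 of 37 (0.0% of all probes), and 0 reached the unadjusted p with the fold (0.584%). The methods name a one-way ANOVA followed by LSD or Tukey comparisons, and no adjustment over probes. The ANOVA with LSD comparisons, with the Benjamini-Hochberg adjustment added here, called 0 members in each of these comparisons. It also put 0 past the unadjusted p with the fold.

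Without the requirement on fold, 5 members (13.5%) were lower in ZnO NPs than in control at an unadjusted p under 0.05, against 9.89% of all tested probes, and 0 were higher, against 15.3%. The lower ones were both probes of ccl20a.3, those of ccl34b.1 and ccl19a.1, and 1 of the 3 probes of cxcr4a. In ZnSO4, 4 members (10.8%) were lower, against 8.98%, namely ccl34b.1, ccl19a.1 and 2 probes of cxcr4a, and 1 (2.7%) was higher, against 9.35%, namely cxcr3.2. Between ZnO NPs and ZnSO4, 0 members were lower (1.76% of all probes) and 0 higher (3.89%). Both treatments were set against the same 2 control arrays, so their values are not independent of each other. Leaving out control replicate 2, which leaves 1 control array, raised the number of lower members in ZnO NPs. The share of all probes that were lower rose as well. Without control replicate 1 the number of lower members did not rise. Leaving out ZnO NP replicate 3 gave 8 of 37 lower members, against 7.45% of all probes in that fit. Without ZnSO4 replicate 1 or replicate 2, 2 of 37 members were lower in ZnSO4, in each case ccl34b.1 and ccl19a.1, against 7.42% and 5.81% of all probes. Arrays were also shifted by their median in place of their 75th percentile. In ZnO NPs, 12 of 37 members were then lower and 0 higher, against 17.1% and 8.62% of all probes. In ZnSO4, 6 of 37 were lower and 0 higher, against 13.3% and 5.24%.

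Groups that do not overlap describe the same values without a model. In ZnO NPs, 11 members (29.7%) were lower on every treated array than on both control arrays, against 18.1% of all tested probes, and 3 (8.11%) were higher on every one, against 23.8%. The lower ones include all 3 probes of cxcr4a and both of ccl20a.3, and probes of 1 gene are not separate pieces of evidence. Of the higher ones, ccr12a met the filter through the ZnO NP arrays alone, and the others were probes of cxcl12a. For ZnSO4 the counts were 8 lower (21.6%, against 19.3%), again with all 3 probes of cxcr4a, and 2 higher (5.41%, against 19.8%). Between the treatments 0 members were lower on every ZnO NP array (5.53% of all probes) and 1 was higher (2.7%, against 8.82%).

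Over the 37 tested members the median log2 fold change was -0.16 in ZnO NPs, where 27 (73.0%) were below 0, against a median of 0.03 and 44.9% below 0 over all tested probes. It was -0.09 in ZnSO4, with 25 (67.6%) below 0, against 0.02 and 45.9% over all probes. In ZnO NPs relative to ZnSO4 it was -0.04, against 0.01, and this turned to 0.02 without ZnO NP replicate 2 and to 0.01 both under another background correction (normexp) and with the side as a block. The medians of all probes in these fits were 0.01, 0.05 and 0.003, so under normexp the family stayed below all probes. The ZnO NP median was -0.24 with arrays shifted by their medians, where that of all probes was -0.06, and -0.07 under normexp, where that of all probes was 0.07. It was -0.08 without ZnO NP replicate 2 and -0.09 without control replicate 1, where those of all probes were 0.03 and 0.02. ZnO NP replicate 2 had the lowest family median of any array, 0.26 below the control mean on the log2 scale. The ZnSO4 median was -0.03 without control replicate 1 and -0.06 without ZnSO4 replicate 1, where those of all probes were -0.007 and 0.02. Without control replicate 1, 59.5% of members were below 0 in ZnSO4, against 51.5% of all probes, so the family then lay closer to all probes. Within side 1, ZnO NP replicates 1 and 2 had a median of -0.21 against control, and within side 2, ZnO NP replicate 3 had a median of 0.01 against ZnSO4. The control arrays themselves differed by a median of 0.18 on the log2 scale over the members, and by 2.30 for cxcl19. Marker probes of other tissues, given below, also lay mostly below 0 in both treatments.

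**Figure D2:**
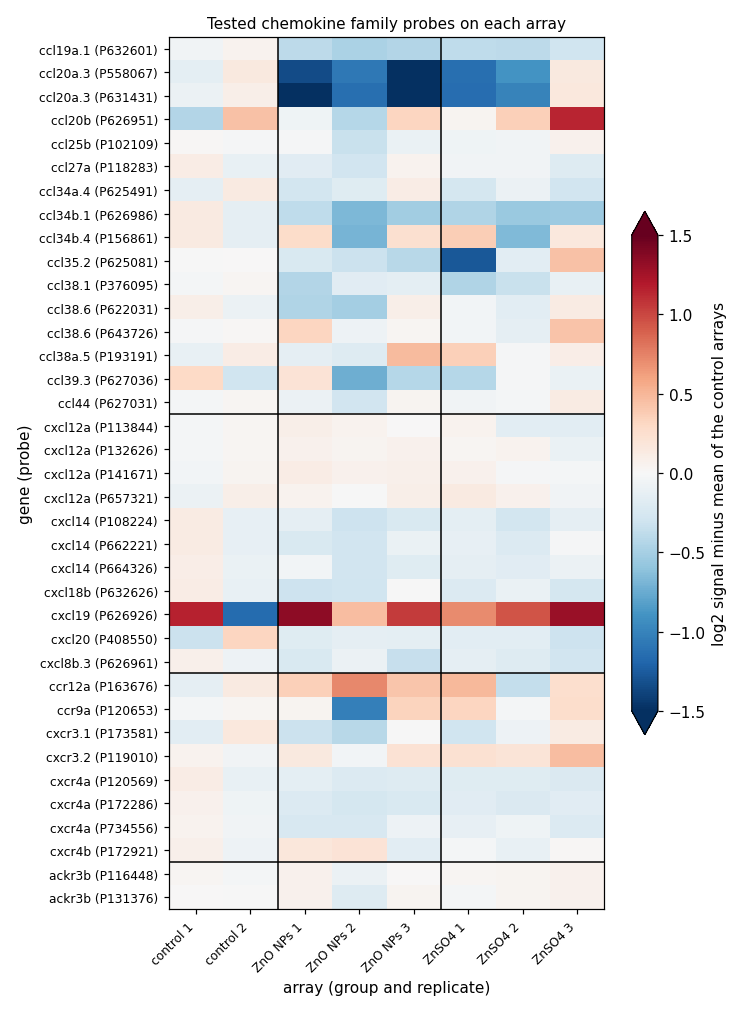
The log2 scaled signal of each of the 37 tested probes minus the mean of the control arrays, by array, with blue lower and red higher (colors end at 1.5 in either direction). Both ccl20a.3 lines are dark blue on the 3 ZnO NP arrays and on ZnSO4 replicates 1 and 2 but not on ZnSO4 replicate 3, and cxcl19 splits the control arrays.

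In ZnO NPs the largest differences from control in the family were those of ccl20a.3, a CC ligand of the ccl20 group. Its mammalian counterpart CCL20 attracts lymphocytes and immature dendritic cells through CCR6. In ZnSO4 the largest difference was that of cxcl19, at 0.98 on the log2 scale, described below. At probe A_15_P558067 the scaled signal of ccl20a.3 was 325 and 397 in control, 142, 171 and 116 in ZnO NPs, and 164, 194 and 399 in ZnSO4. At the second probe of ccl20a.3 (A_15_P631431) it was 178 and 202 in control, 67.6, 86.8 and 65.0 in ZnO NPs, and 85.8, 94.6 and 213 in ZnSO4. All 3 ZnO NP arrays thus lay below both control arrays at both probes, whereas in ZnSO4 replicates 1 and 2 lay below and replicate 3 lay at or above the higher control array.

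In ZnO NPs the log2 fold changes of ccl20a.3 were -1.35 (SE 0.36, limma adjusted p = 0.114, unadjusted p = 0.00655) and -1.39 (SE 0.36, adjusted p = 0.112), that is, 2.54-fold and 2.62-fold lower for 3 arrays against 2. Over 20 alternative settings they ran from -1.56 to -0.83 over both probes, with adjusted p between 0.0946 and 0.300, so that no setting called either probe. Within side 1 the differences were -1.21 and -1.31, for 2 against 2 arrays. In ZnSO4 the log2 fold changes of ccl20a.3 were -0.63 (SE 0.36, adjusted p = 0.383) and -0.66 (SE 0.36, adjusted p = 0.363). Without ZnSO4 replicate 3 these were -1.01 and -1.08, and both passed an unadjusted p of 0.05 with a fold of at least 1.5. Relative to ZnSO4 the ZnO NP arrays gave -0.72 (SE 0.32, adjusted p = 0.812) and -0.73 (SE 0.33, adjusted p = 0.812), with intervals of -1.48 to 0.03 and -1.49 to 0.04 at 95%.

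ccl20b, the other ccl20 gene with a probe, did not follow ccl20a.3. Its scaled signals were 31.5 and 57.8 in control, 40.8, 31.7 and 53.2 in ZnO NPs, and 43.7, 54.6 and 94.4 in ZnSO4, and the groups overlapped, with log2 fold changes of -0.06 (SE 0.39) and 0.51 (SE 0.39). The highest value was again on ZnSO4 replicate 3. For ccr6a, a homologue of the mammalian CCL20 receptor, only ZnO NP replicate 1 (19.4) and ZnSO4 replicate 3 (24.6) were well above background, and the other arrays lay between 5.23 and 16.3.

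**Figure D3:**
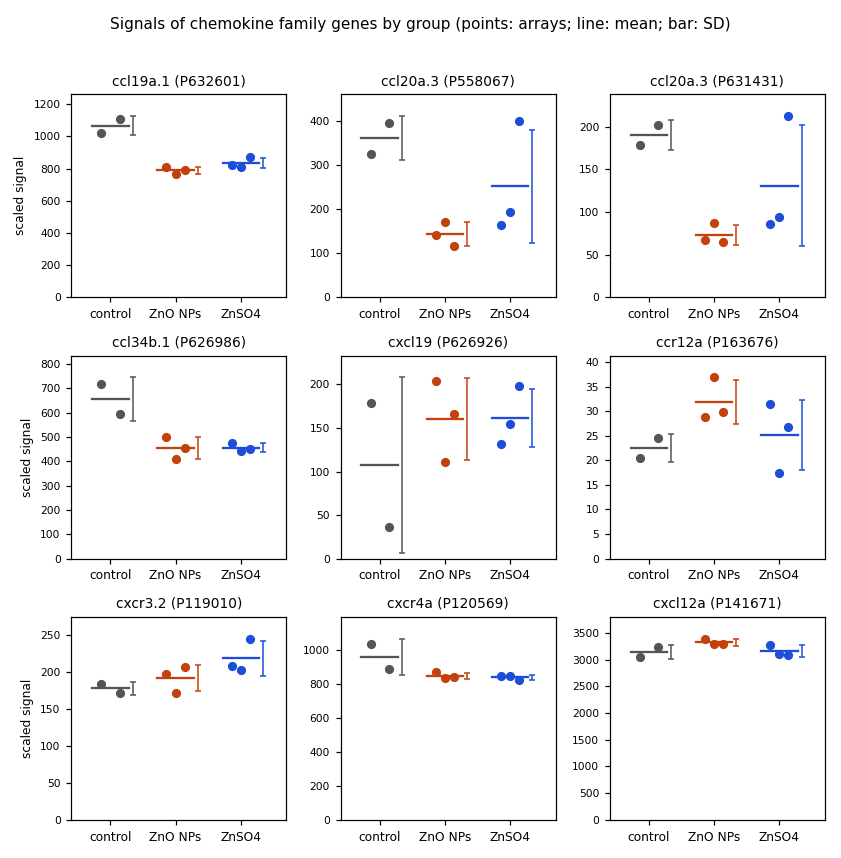
Scaled signals of 8 family genes (ccl20a.3 at both probes), by group, each panel with its own axis from 0; points are arrays, lines group means and bars SDs. ZnO NP arrays lie below both control arrays for ccl19a.1, ccl20a.3, ccl34b.1 and cxcr4a, while the cxcl12a arrays of all groups lie between 3041 and 3392.

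ccl34b.1 is a CC ligand whose promoter has been used to label a class of microglia, the resident macrophages of the brain, in zebrafish. Its scaled signal was 719 and 594 in control, 501, 410 and 455 in ZnO NPs, and 476, 443 and 448 in ZnSO4, so every treated array lay below both control arrays. The log2 fold change was -0.53 (SE 0.11, limma adjusted p = 0.104) in ZnO NPs and -0.52 (SE 0.11, adjusted p = 0.162) in ZnSO4, and -0.01 (SE 0.10) between the treatments. Without control replicate 2, the lower of the control arrays, ccl34b.1 was called in both treatments, at -0.66 (adjusted p = 0.0335) and -0.66 (adjusted p = 0.0452). Over all alternatives its adjusted p ran from 0.0335 to 0.288 in ZnO NPs and from 0.0452 to 0.627 in ZnSO4. The other ccl34b gene with a probe, ccl34b.4, gave 16.3 to 34.1 over all groups, and its groups overlapped in both treatments.

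ccl19a.1, of the ccl19 group that in mammals signals through CCR7, had the smallest adjusted p of the family. Its scaled signal was 1025 and 1110 in control, 813, 767 and 789 in ZnO NPs, and 821, 811 and 870 in ZnSO4. Every treated array lay below both control arrays, with log2 fold changes of -0.43 (SE 0.07, limma adjusted p = 0.0862) and -0.36 (SE 0.07, adjusted p = 0.152), or 1.35-fold and 1.28-fold lower. These folds are under 1.5, so the gene could not be called at any p. Leaving out control replicate 2 gave the smallest adjusted p among the alternatives, 0.0459 in ZnO NPs and 0.0897 in ZnSO4, and the largest were 0.252 and 0.611.

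The other homeostatic CC ligands differed less. ccl25b belongs to the group that in mammals draws developing T cells to the thymus through CCR9, and its scaled signal ran from 1379 to 1424 in control, from 1110 to 1379 in ZnO NPs and from 1337 to 1469 in ZnSO4. The log2 fold changes of ccl25b were -0.15 (SE 0.10, adjusted p = 0.389) and -0.02 (SE 0.10, adjusted p = 0.945). Its receptor homologue ccr9a read 63.1 and 65.9 in control, 66.5, 31.6 and 81.1 in ZnO NPs, and 80.5, 63.4 and 77.5 in ZnSO4, with ZnO NP replicate 2 far below the other arrays. ccl27a, whose mammalian counterpart is a skin chemokine that binds CCR10, gave 302 and 257 in control, 248, 227 and 289 in ZnO NPs, and 268, 268 and 243 in ZnSO4, and the groups overlapped. ccr10 was well above background on ZnO NP replicate 3 alone (48.3), with 2.53 to 4.83 on the other 7 arrays.

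Among the remaining CC ligands, ccl38.1 was lower on every treated array than in control, at 115 and 119 in control, 85.9, 104 and 106 in ZnO NPs, and 85.3, 92.8 and 109 in ZnSO4. Its log2 fold changes were -0.25 (SE 0.13, adjusted p = 0.266) and -0.30 (SE 0.13, adjusted p = 0.278). ccl35.2 was lower on every ZnO NP array (41.0, 38.7 and 36.1, against 47.9 and 48.6), but its log2 fold change of -0.32 had an SE of 0.42, as the ZnSO4 arrays ranged from 19.9 to 65.7. The probes of ccl38.6 disagreed in sign, at -0.29 (SE 0.19) and 0.09 (SE 0.18) in ZnO NPs. ccl34a.4, ccl38a.5 (formerly called ccl2), ccl39.3 and ccl44 overlapped with control in both treatments, with log2 fold changes between -0.32 and 0.15. By sign alone, 14 of the 16 tested CC ligand probes were below 0 in ZnO NPs (median -0.20) and 12 in ZnSO4 (median -0.14), where 44.9% and 45.9% of all tested probes were.

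**Figure D4:**
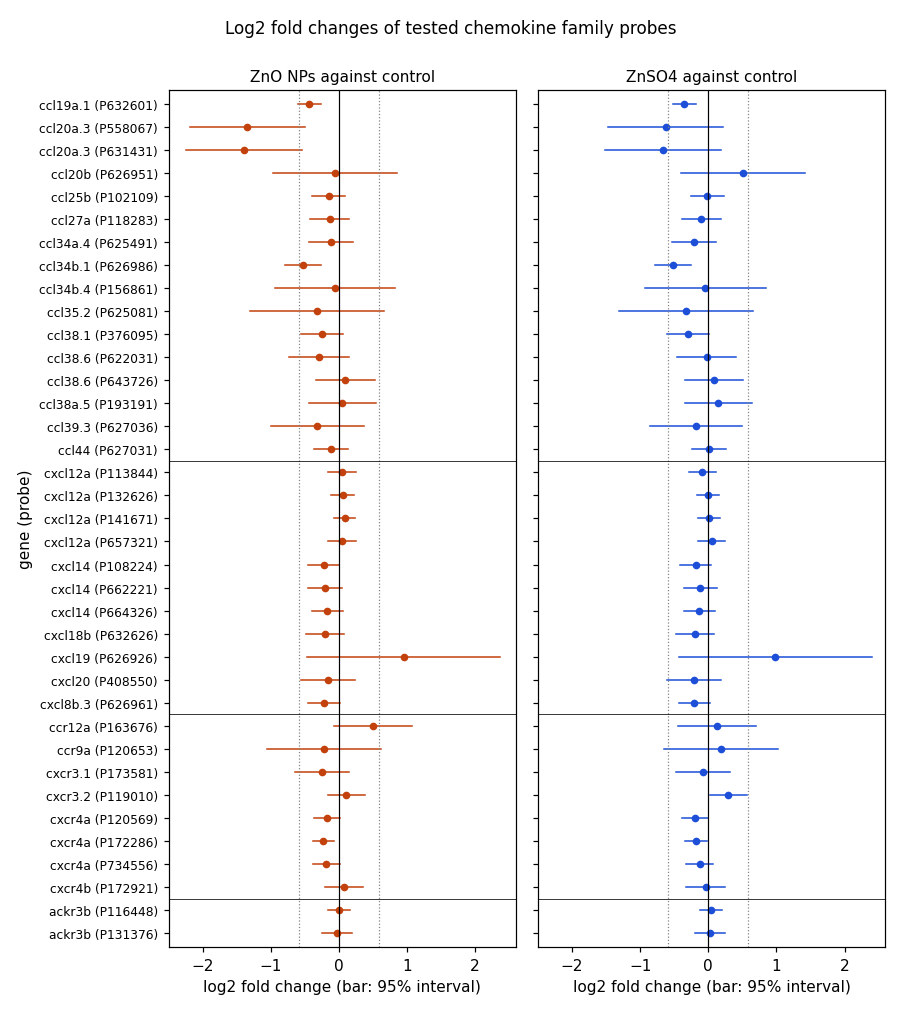
Log2 fold changes of the 37 tested probes against control with their 95% intervals from limma, for ZnO NPs (left, orange) and ZnSO4 (right, blue); dotted lines mark a fold of 1.5 in either direction. Intervals exclude 0 for 5 probes in ZnO NPs and 5 in ZnSO4, and the widest belong to cxcl19.

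Cxcl12 is the guidance cue of the family: in zebrafish cxcl12a directs the lateral line primordium and the germ cells through cxcr4b, and the scavenger receptor ackr3b removes it from the tissue. The 4 probes of cxcl12a had log2 fold changes of 0.04 to 0.08 in ZnO NPs (SE 0.07 to 0.09, adjusted p from 0.456 to 0.788), and of -0.09 to 0.05 in ZnSO4. At the probe with the highest signal, A_15_P141671, cxcl12a gave 3041 and 3228 in control, 3392, 3284 and 3292 in ZnO NPs, and 3280, 3097 and 3076 in ZnSO4. The ZnO NP arrays thus lay above both other groups at that probe, but the interval of the difference from control, -0.07 to 0.24, includes 0. With arrays shifted by their medians, which lowers the median of all probes from 0.03 to -0.06, the difference was just below 0.

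Of the Cxcl12 receptors, cxcr4b gave 661 and 593 in control, 702, 723 and 562 in ZnO NPs, and 614, 581 and 636 in ZnSO4, with a 95% interval of -0.21 to 0.35 for ZnO NPs and of -0.32 to 0.25 for ZnSO4. The 2 probes of ackr3b had log2 fold changes between -0.03 and 0.04 in both treatments, with 95% intervals from -0.25 to 0.24 at the wider. At A_15_P116448 ackr3b gave 9100 and 8754 in control, 9345, 8432 and 8948 in ZnO NPs, and 9120, 9183 and 9312 in ZnSO4, where all 3 arrays lay just above control (log2 fold change 0.04, SE 0.07, adjusted p = 0.760). ackr3a was well above background on control replicate 2 (21.6) and ZnO NP replicate 1 (20.9) only.

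The paralogue cxcr4a, a Cxcl12 receptor known in zebrafish for its part in vessel and endoderm development, was lower on every treated array than on both control arrays at each of its 3 probes. At A_15_P172286 cxcr4a gave 555 and 510 in control, 463, 444 and 456 in ZnO NPs, and 474, 459 and 472 in ZnSO4. The differences were small, at -0.18 to -0.23 in ZnO NPs (limma adjusted p from 0.125 to 0.219) and -0.13 to -0.19 in ZnSO4 (adjusted p from 0.234 to 0.441). The differences stayed below 0 under all 20 alternatives at each probe, though some alternatives cannot change the log2 fold change. Their size rested on the control arrays. At A_15_P120569 leaving out control replicate 1 gave -0.07 in ZnO NPs and -0.08 in ZnSO4, and leaving out control replicate 2 gave -0.29 and -0.31. The probes share a transcript and are not separate pieces of evidence.

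Next came the CXC ligands of the cxcl8, cxcl11 and cxcl18 groups, with the Cxcr3 receptors. cxcl8b.3, of the group of cxcl8 genes that attract neutrophils, gave 94.1 and 85.2 in control, 76.7, 84.2 and 70.3 in ZnO NPs, and 81.6, 78.2 and 73.3 in ZnSO4, with log2 fold changes of -0.22 (SE 0.10, adjusted p = 0.212) and -0.21 (SE 0.10, adjusted p = 0.311), and every treated array lay below both control arrays. cxcl18b, a fish chemokine that attracts neutrophils in zebrafish, gave 328 and 280 in control, 245, 247 and 302 in ZnO NPs, and 263, 283 and 252 in ZnSO4, and the groups overlapped, with log2 fold changes of -0.20 (SE 0.12) and -0.19 (SE 0.12). cxcl11.8, of the group of Cxcr3 ligands, was not well above background on any array.

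Among the Cxcr3 receptors, which adjoin each other in the gene order of GRCz12tu, cxcr3.2 recruits macrophages in zebrafish and cxcr3.3 acts there as a scavenger. The scaled signal of cxcr3.2 was 183 and 171 in control, 196, 172 and 206 in ZnO NPs, and 207, 202 and 244 in ZnSO4. All 3 ZnSO4 arrays lay above both control arrays, at a log2 fold change of 0.29 (SE 0.11, limma adjusted p = 0.249), whereas ZnO NPs overlapped with control (0.11, SE 0.11). The difference between the treatments was -0.19 (SE 0.10, adjusted p = 0.812), so that the values do not show the treatments to differ. cxcr3.1 gave 41.6 and 51.4 in control, 34.8 to 46.2 in ZnO NPs and 37.6 to 50.4 in ZnSO4. cxcr3.3 was well above background on 3 of 8 arrays, 1 in each group.

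cxcl14, a CXC ligand produced by resting epithelia in mammals, had log2 fold changes of -0.17 to -0.23 in ZnO NPs (SE 0.10, adjusted p from 0.207 to 0.306) and -0.12 to -0.19 in ZnSO4 over its 3 probes. Leaving out control replicate 1 brought the cxcl14 values in ZnO NPs to between -0.10 and -0.07, and leaving out control replicate 2 to between -0.35 and -0.27. At A_15_P108224 cxcl14 read 5714 and 4798 in control, 4750, 4226 and 4474 in ZnO NPs, and 4716, 4336 and 4758 in ZnSO4, with control replicate 1 well over all other arrays. cxcl19 had the largest positive fold changes, 0.95 (SE 0.61) and 0.98 (SE 0.61), but its control arrays gave 179 and 36.2, and the treated arrays, from 111 to 205, lay around the higher of these. cxcl20 likewise split the control arrays, at 248 and 388, with 250 to 283 on the treated arrays. ccr12a gave 20.5 and 24.5 in control, 28.8, 36.9 and 29.9 in ZnO NPs, and 31.5, 17.4 and 26.8 in ZnSO4. Its log2 fold change in ZnO NPs was 0.50 (SE 0.24, limma adjusted p = 0.242). Control replicate 1 and ZnSO4 replicate 2 were not well above background for ccr12a.

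Genes tied to the induction of inflammatory chemokines were compared as a list of 16 genes, 15 of them with probes and 18 probes tested. The list also holds nfkbiaa and nfkbiab, which encode inhibitors of the inflammatory regulator NF-kB. Its medians therefore mix genes that act in opposite directions. limma called 0 of the tested probes in each comparison, and the medians were -0.07 in ZnO NPs and -0.04 in ZnSO4. At an unadjusted p under 0.05, 3 probes were lower in ZnO NPs (both of tnfb and that of the granulocyte growth factor gene csf3b) and 2 in ZnSO4, where 9.89% and 8.98% of all probes were, and 1 (stat1a) was higher in each, where 15.3% and 9.35% of all probes were. The cytokine genes tnfa and il6 were not well above background on any array, and il1b was so on 2 of 8. tnfb, a tumor necrosis factor gene, gave 273 and 228 in control, 173, 165 and 168 in ZnO NPs, and 177, 191 and 261 in ZnSO4 at A_15_P206556. Its log2 fold change in ZnO NPs was -0.57 (SE 0.16, adjusted p = 0.122) there and -0.71 (SE 0.16, adjusted p = 0.105) at A_15_P627701. The latter probe was well above background on only 6 of 8 arrays, with signals of 20.2 to 40.6. As with ccl20a.3, ZnSO4 replicate 3 was the highest ZnSO4 array at both probes of tnfb, and at the first it lay within the control range. stat1a, which mediates interferon signalling, was higher on every treated array, at 0.22 (SE 0.08, adjusted p = 0.147) and 0.24 (SE 0.08, adjusted p = 0.205).

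Downstream of the receptors, a list of 22 signalling genes (G protein subunits, arrestins, kinases and the actin machinery of migrating leukocytes) had 16 genes with probes and 32 probes tested. In ZnO NPs 0 were called and 0 passed an unadjusted p of 0.05 in either direction (15.3% of all probes higher, 9.89% lower), with a median of 0.07. In ZnSO4 0 were called and 4 passed the unadjusted p, all higher, where 9.35% of all probes were: the phosphoinositide kinase gene pik3cg at 0.18, both tested probes of the actin regulator was at 0.23 and 0.39, and 1 of the probes of the leukocyte actin-binding gene coro1a, which also stands among the general leukocyte markers, at 0.25.

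Markers of the cells that make or answer chemokines were read beside these results, since in a whole larva fewer cells of a type and less RNA per cell cannot be told apart. Of the 10 tested neutrophil marker probes, 4 were higher than control in ZnO NPs and 7 in ZnSO4 at an unadjusted p under 0.05 (15.3% and 9.35% of all probes). In either treatment 0 were lower, and limma called 0. The 10 probes belong to 5 genes, and probes of 1 gene are not separate pieces of evidence. Between the treatments, 6 of the 10 were lower in ZnO NPs than in ZnSO4 (1.76% of all probes), with a median of -0.48, and 0 were called. The myeloperoxidase gene mpx had 3 tested probes, and at A_15_P158486 mpx gave 56.2 and 53.6 in control, 72.2, 63.2 and 73.2 in ZnO NPs, and 84.5, 102 and 105 in ZnSO4. The log2 fold change of mpx at that probe, the smallest of the 3, was 0.34 (SE 0.12, adjusted p = 0.146) in ZnO NPs and 0.82 (SE 0.12, adjusted p = 0.101) in ZnSO4. The other mpx probes gave 0.77 (adjusted p = 0.0982) and 0.47 in ZnO NPs, and 1.26 (adjusted p = 0.0692) and 0.95 in ZnSO4, and every treated array lay above both control arrays at all 3. lyz, the lysozyme gene of neutrophils and macrophages, was at 0.09 (SE 0.16) and 0.49 (SE 0.16), and the matrix metalloproteinase gene mmp9 at 0.98 (SE 0.33) and 0.78 (SE 0.33), with 2567 on ZnO NP replicate 3 and 1170 to 1395 on the other treated arrays, against 897 and 669 in control. npsn, also on the neutrophil list, overlapped with control in ZnO NPs at each tested probe. At A_15_P669726 npsn gave 881 and 687 in control, 887, 649 and 859 in ZnO NPs, and 1017, 1133 and 1258 in ZnSO4. At A_15_P118830 the ZnSO4 arrays (439, 427 and 439) overlapped with control (433 and 304) as well.

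Summed over a list, signals compare arrays only, since probes of high signal carry the sum. For the 12 neutrophil probes the sum was 17824 to 33506 in control, 20162 to 31093 in ZnO NPs and 31039 to 38511 in ZnSO4, carried mostly by cpa5, a carboxypeptidase gene known in zebrafish as a mast cell marker, which differed between the control arrays (6226 and 16614 at A_15_P116208). Without cpa5, left out after its values were seen, it was 5920 to 7697 in control, 6609 to 9697 in ZnO NPs and 9486 to 10912 in ZnSO4, and the same 4 and 7 of the remaining 8 tested probes were higher. Of 7 general leukocyte probes, 1 was higher in ZnO NPs and 5 in ZnSO4 at the unadjusted p (15.3% and 9.35% of all probes), and between the treatments 2 were lower in ZnO NPs (1.76% of all probes), with a median of -0.20, with sums of 8095 to 8889 in control, 7953 to 9200 in ZnO NPs and 9406 to 11049 in ZnSO4. Of 9 macrophage probes, 0 were higher and 1 was lower in ZnO NPs, and 2 (both of mpeg1.1) were higher and 1 lower in ZnSO4, against the same shares of all probes, with sums of 5041 to 6612 in control, 4798 to 5735 in ZnO NPs and 5086 to 6863 in ZnSO4. Of 16 lymphoid and thymus probes only 3 were tested, and rag1 and cd8a were not well above background on any array. The sums were 353 to 358 in control, 331 to 347 in ZnO NPs and 343 to 446 in ZnSO4. The highest, on ZnSO4 replicate 2, holds a signal of 101 from 1 probe of lck (A_15_P668361). That probe gave 2.66 to 4.98 on the other arrays. The part of these cell types in the chemokine values was not tested. The whole larva list had 36 probes (muscle, liver, pancreas, neurons, lens, photoreceptors, skin, heart and erythrocytes). All were well above background on every array, with 0 called. Like the family, most lay below 0: 24 in ZnO NPs (median -0.07) and 30 in ZnSO4 (median -0.08), against 44.9% and 45.9% of all probes. At an unadjusted p under 0.05 in limma, 2 were lower in ZnO NPs and 3 in ZnSO4 (9.89% and 8.98% of all probes). In the other direction, 1 was higher in ZnO NPs and 0 in ZnSO4. Relative to ZnSO4, 9 were below 0 in ZnO NPs (median 0.06).

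**Figure D5:**
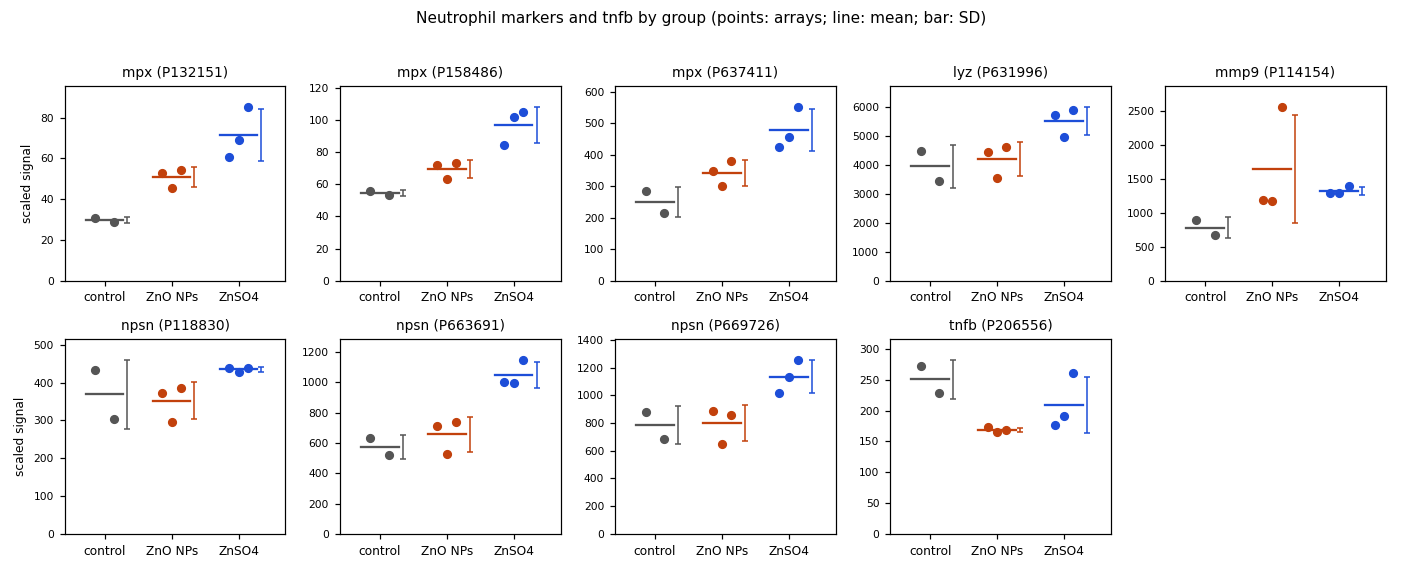
Scaled signals of the neutrophil markers mpx, lyz, mmp9 and npsn at each probe well above background on all arrays, and of 1 probe of tnfb, by group; points are arrays, lines group means and bars SDs, and each axis starts at 0. All ZnSO4 arrays lie above both control arrays at the mpx, lyz and mmp9 probes, and the ZnO NP arrays lie below both for tnfb.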

How the data were processed

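Total RNA of whole larvae was labelled with Cy3 and hybridized to 8 arrays. The deposited scanner files hold each spot's intensity as Feature Extraction wrote it (version 10.10.1.1 per the file headers, another version than the methods state), after background subtraction. The authors' value table holds log2 values shifted by a percentile and centered on each probe's median. It was compared with values computed here with outlier spots kept and centered in the same way. The median absolute difference per array was 0.0025 to 0.0041. The authors' table was used as an alternative.

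Spots marked as outliers were dropped, each array's 75th percentile was subtracted from its log2 processed signals, and spots of a probe were averaged. A probe was kept where at least 1 group had it well above background throughout (34617 probes, of which 34616 had a value in every group). limma 3.58.1 (R 4.3.3) used 1 model for all groups (5 residual degrees of freedom, and 2.43 from the prior) and gave ZnO NPs and ZnSO4 against control and against each other. The fit was tested on simulated data. Depth is set by the number of arrays, which limits the precision most in the control.

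Accessions were matched to the RefSeq table of GRCz12tu, which gave 1 symbol for 25854 probes. The files name another build (Zv9), so no coordinates are given. Probes named with values are, in each comparison, the 3 highest and the 3 lowest log2 fold changes among those whose groups do not overlap, any called probe, and the ligand and receptor sets of cxcl12, cxcl8, cxcr3, ccl19, ccl25, ccl20, ccl27, cxcl13 and cxcl14. Other members with values (ccl20b, ccl34b.4, ccl35.2, ccl38.6, cxcl19 and cxcl20) were chosen after their values were seen. The members, lists and tests were chosen with earlier results of these data known. Alternatives changed the scaling, background correction, filter, outlier spots, test, blocks and arrays. Differences within a side of the slide and the unadjusted p at any fold were added after seeing the data.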

Additional observations from a re-analysis of the deposited data

Results flagged for a closer look

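Probes that were left out of the tests, because no group had them well above background on every array, still gave a signal well above background on single treated arrays that was more than 2 times the higher control array. ccl33.3 (A_15_P545702) gave a scaled signal of 123 on ZnSO4 replicate 1, against 16.1 and 23.9 in control and 20.3 and 22.7 on the other ZnSO4 arrays. ccr10 (A_15_P101694) gave 48.3 on ZnO NP replicate 3, against 4.83 and 3.58 in control. ccl39.1 (A_15_P626941) gave 30.5 on ZnSO4 replicate 3, against 4.89 and 6.60 in control, while another probe of ccl39.1 (A_15_P663846) gave 8.04 on that array and was not well above background on any. ccr6a (A_15_P169451) gave 24.6 on ZnSO4 replicate 3, against 5.25 and 8.9996 in control. Each of these probes has 1 spot on an array. ccr10 and this probe of ccl39.1 were well above background on no other array, whereas ccr6a was also so on ZnO NP replicate 1 (19.4), and ccl33.3 on control replicate 2 (23.9) and ZnO NP replicate 1 (24.0).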

How the results depend on the processing

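The count of called members stayed at 0 in every comparison under all 20 alternatives except 1 array left out: without control replicate 2, ccl34b.1 was called in both treatments, so that leaving out 1 array gave 0 to 1 members for ZnO NPs and 0 to 1 for ZnSO4. The count at an unadjusted p under 0.05 with a fold of at least 1.5 was 2 for ZnO NPs, and 0 with one-way ANOVA and LSD comparisons. It was 3, with ccl34b.1 added, both with arrays shifted by their medians and without ZnO NP replicate 1. Leaving out either control array moved this count as well. For ZnSO4 it was 1 (ccl38.6) after blocking on the side, and 0 to 2 with 1 array left out, the most without ZnSO4 replicate 3 (both probes of ccl20a.3). Between the treatments it was 1 (ccl20a.3) with arrays shifted by their medians, 1 (ccl39.1) without the filter on dim probes, and 0 to 2 with 1 array left out, the most without ZnSO4 replicate 1. The shares of all probes that were called or passed this fold are not given for the alternatives. None of these counts is therefore read as particular to the family. At any fold, 17.1% of all probes were lower in ZnO NPs with arrays shifted by their medians. Without ZnO NP replicate 1 the share was 9.65%, and in the main fit 9.89%. The family's median log2 fold change in ZnSO4, -0.09, was -0.15 with arrays shifted by their medians, -0.024 without the filter, -0.14 with the replicate number as a block, -0.19 with the side as a block, and -0.12 to -0.034 with 1 array left out. The cause of these moves was not tested. Deviations of samples with the same replicate number had correlations from -0.07 to 0.15, and those with different numbers from -0.19 to 0.12. The same-number pairs of ZnO NPs and ZnSO4 were all above 0 (0.06, 0.08 and 0.15). The control arrays deviate as mirror images of each other, so pairs with control cannot decide this. All correlations were small, and the numbers were not taken as pairs in the main fit. The replicate block changed no call. It put 10 members in place of 5 below control in ZnO NPs at an unadjusted p under 0.05 (8.4% of all probes). Of the 37 members, quantile normalization put 9 there (11.5% of all probes), the side block 8 (7.45%) and the ANOVA 3 (6.89%). For ZnO NPs against control, the side block, the fit without ZnO NP replicate 3 and the differences within side 1 give the same fold changes. They are therefore 1 check and not 3. Over 26 named probes in 3 comparisons, 1479 of 1557 single-probe alternatives kept direction and side of the threshold, 2 (ccl34b.1) gained a call, and 76 changed sign with an unadjusted p of 0.05 or more both before and after. Where 1 control array is left, its spread is taken from the other groups. In some alternatives the direction could not change, so their agreement is not a check of it. The ANOVA, the fit of only the groups compared and the fold of at least 2 leave the log2 fold change as it was. Leaving out an array of the group not compared does so as well. The fold of at least 2 could also add no call.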
